A study of Mus musculus with 2 samples.

Results

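The cells described here are barcodes of cardiac leukocytes that carried the RNA of the neutrophil alarmins S100a8 and S100a9 together with the RNA of the granule proteins Ngp, Camp and Ltf. A barcode was a member when S100a8 and S100a9 summed to at least 100 UMIs (unique molecular identifiers, 1 per captured RNA molecule) per 10000 UMIs and Ngp, Camp and Ltf summed to at least 10. In all, 171 of 9770 kept barcodes were members, 9 in the sham library and 162 in the library from pressure-overloaded hearts. A kept barcode had at least 300 detected genes and at most 10% of its UMIs from the mitochondrial genome. The members were selected on the measured levels of these 5 genes, so those values are given as a description, without a test.

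RNA of single leukocytes was captured in droplets after CD45+ cells had been sorted by flow cytometry from digested hearts. All animals were wild-type C57BL/6 mice of 10 weeks, 6 per group, and had either a sham operation or transverse aortic constriction (TAC), a banding of the aorta that loads the left ventricle with pressure. Each group is 1 library in which the animals cannot be told apart. The sources used here do not give the time between operation and harvest. With 1 library per group no test of TAC against sham was possible, and all intervals below cover counting error only.

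Neutrophils are made in the bone marrow, and their granule proteins are transcribed in waves that follow their maturation. Primary granule proteins such as Mpo and Elane are made by promyelocytes, secondary granule proteins such as Ltf, Camp and Ngp by the myelocytes and metamyelocytes that come next, and gelatinase granule proteins later still. Cebpe, a C/EBP-family transcription factor, drives secondary granule genes, and mature neutrophils that have left the marrow normally carry little secondary granule RNA while they gain cytokine, chemokine-receptor and interferon-response transcripts.

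Ngp, Camp and Ltf lie on the same chromosome. On mm10, Camp, which encodes the cathelicidin antimicrobial peptide, lies at chr9:109847379-109849617 on the minus strand. Ngp, neutrophilic granule protein, lies at chr9:110419747-110423012 on the plus strand, and Ltf, lactotransferrin, at chr9:111019271-111042767 on the plus strand. The 3 genes span 1.195 Mb, with 570 kb between Camp and Ngp and 596 kb between Ngp and Ltf. S100a8 and S100a9, the calcium-binding subunits of calprotectin, lie on chromosome 3.

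The sequences that follow are the stretches before the starts of these 3 genes and of Chil3 and Cd177, other granule-associated genes whose RNA was higher in the members. They come from RefSeq on GRCm38.p6, the assembly that mm10 names, and are cut where the GENCODE vM21 gene begins. They are 5′ to 3′ on the strand of the gene, with capitals on matches to TTNNGNAA or its reverse complement TTNCNNAA, a loose form of the site that C/EBP proteins bind.
Ngp, chr9:110419558-110419746, plus strand: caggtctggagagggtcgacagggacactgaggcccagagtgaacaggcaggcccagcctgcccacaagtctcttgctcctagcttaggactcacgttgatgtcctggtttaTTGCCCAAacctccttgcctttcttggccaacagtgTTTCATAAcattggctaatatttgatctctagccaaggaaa
Camp, chr9:109849618-109849706, minus strand: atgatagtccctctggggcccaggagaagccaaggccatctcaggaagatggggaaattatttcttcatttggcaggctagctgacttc
Ltf, chr9:111019042-111019270, plus strand: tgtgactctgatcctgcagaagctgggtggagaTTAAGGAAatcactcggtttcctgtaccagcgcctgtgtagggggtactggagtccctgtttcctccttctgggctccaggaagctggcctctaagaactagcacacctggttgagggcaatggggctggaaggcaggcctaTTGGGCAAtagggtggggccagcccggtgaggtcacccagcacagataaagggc
Chil3, chr3:106167565-106167814, minus strand: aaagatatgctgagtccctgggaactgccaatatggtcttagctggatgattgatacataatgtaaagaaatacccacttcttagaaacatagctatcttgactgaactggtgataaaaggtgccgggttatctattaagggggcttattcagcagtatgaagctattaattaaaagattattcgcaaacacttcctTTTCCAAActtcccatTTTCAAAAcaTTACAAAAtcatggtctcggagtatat
Cd177, chr7:24760312-24760561, minus strand: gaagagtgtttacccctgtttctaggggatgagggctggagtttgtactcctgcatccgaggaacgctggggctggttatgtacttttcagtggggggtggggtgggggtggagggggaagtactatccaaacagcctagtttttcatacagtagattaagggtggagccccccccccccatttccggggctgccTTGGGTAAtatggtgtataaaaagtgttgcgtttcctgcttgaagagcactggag

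Over the full 250 bases before the RefSeq start, Ngp held 3 matches, which begin 138, 102 and 11 bases before the start. Ltf held 2, at 217 and 75 bases, Chil3 held 3, at 53, 37 and 27 bases, Cd177 held 1, at 55 bases, and Camp held none. Of 18 secondary granule genes looked up, the 3 rule genes included, 16 were in the table and 10 of these held a match, beside 36.8% of 32536 distinct upstream windows of that length. The PU.1-type motif GAGGAA, read on both strands, was in the windows of 8 of the 16 and in 23.4% of all windows. Both are counts of letters and describe neither binding nor its absence.

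The deposited libraries held 87532984 UMIs over 11941 sham barcodes and 97983083 over 7975 TAC barcodes. The mitochondrial limit left out 63.6% of the sham and 28.2% of the TAC barcodes, so sham barcodes were kept less often. Both expression limits were met by 11 sham and 189 TAC barcodes before the filters, of which 9 and 162 were kept. The libraries shared 35 barcode sequences, of which 7 were kept in both and 1 belonged to a member, and no sequence was a member in both.

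Granule RNA varied widely among members. In the TAC library the summed Ngp, Camp and Ltf level ran from 10.2 to 1217 UMIs per 10000, with a median of 212. Ngp was present in all 162 TAC members, with a median of 153 per 10000 and a highest value of 638. Camp had a median of 36.2 and a highest value of 498, and Ltf a median of 22.5 and a highest value of 145. All 3 genes were detected in 138 members, Ngp and Camp without Ltf in 11, and Ngp alone in 13. Of all granule UMIs in TAC members, Ngp made up 67.0%, Camp 22.2% and Ltf 10.7%.

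The limit fell in a sparse stretch of a continuous range. Among the S100-high barcodes of the TAC library, 826 had no UMI of the 3 genes, 237 had up to 5 per 10000, 21 had 5 to 10, 6 had 10 to 15 and 6 had 15 to 20. The 5 members nearest the limit had 10.2 to 11.9 per 10000 and the 5 barcodes nearest below it 8.78 to 9.60. The 3 levels rose and fell together among the 162 TAC members, with Spearman's rho of 0.848 for Ngp and Camp, 0.879 for Ngp and Ltf and 0.896 for Camp and Ltf. These are correlations over cells of 1 library, whose sum was cut by the rule.

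**Figure D1:**
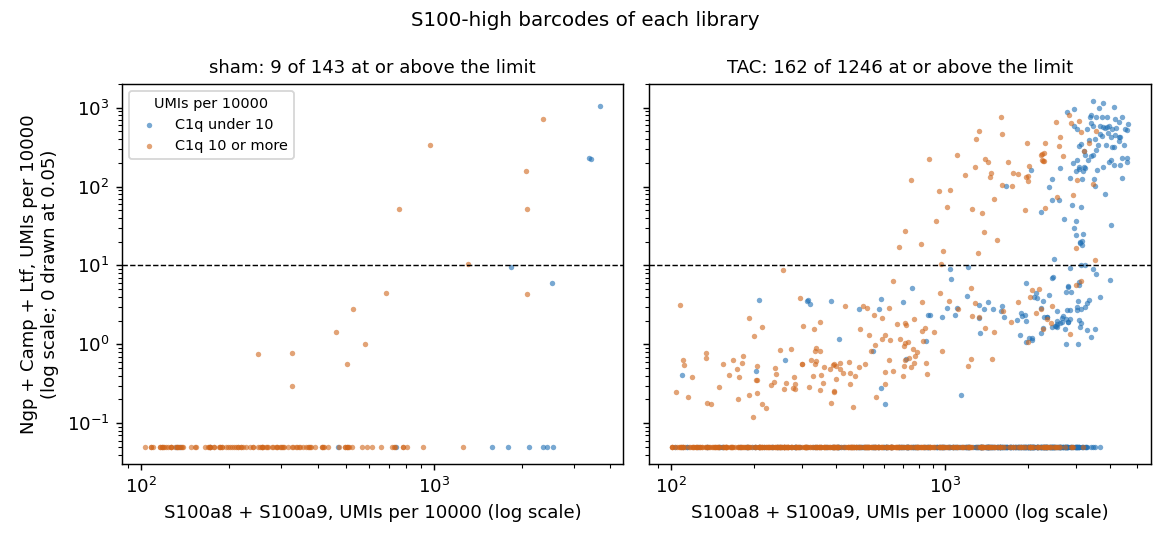
S100a8 plus S100a9 (horizontal, UMIs per 10000, log scale) against Ngp plus Camp plus Ltf (vertical, UMIs per 10000, log scale, 0 drawn at 0.05) for each S100-high barcode, 143 sham and 1246 TAC; the dashed line is the limit of 10 and the colour shows C1qa, C1qb and C1qc summed. Of the TAC barcodes 162 lie at or above the line and most sit on the row of 0, and of the sham barcodes 9 lie at or above it.

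Members were a larger share of kept barcodes in the TAC library. They made up 2.89% of kept barcodes there (162 of 5601, exact Clopper-Pearson 95% interval 2.47 to 3.37%) and 0.216% in sham (9 of 4169, 0.0988 to 0.409%). Among S100-high barcodes, members were 13% in TAC (162 of 1246, 11.2 to 15%) and 6.29% in sham (9 of 143, 2.92 to 11.6%). The intervals were apart over all kept barcodes and overlapped over S100-high barcodes. Without C1q-rich barcodes the share among S100-high barcodes turned round, at 16.5% in TAC (98 of 595) and 18.8% in sham (3 of 16), as it did at a mitochondrial limit of 5%, with 19.9% and 25% (1 of 4 in sham). Neither difference has a replicate check, and a change in these cells cannot be told apart from a change in the other cells of the sort or from the library.

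Granule RNA outside the S100-high barcodes was at low levels. At full depth 14.97% of TAC barcodes with macrophage markers and 14.7% of all TAC barcodes below the S100 limit held any Ngp, Camp or Ltf UMI, against 0.290% and 0.348% in sham. After thinning each barcode to 1000 UMIs, 1.03% of 3218 TAC barcodes with macrophage markers held such a UMI (0.707 to 1.44%), as did 1.36% of 221 with fibroblast markers and 1 of 76 with T cell markers. The granule-low S100-high barcodes were at 4.43% (48 of 1084, 3.28 to 5.83%) and members at 100%. Of 4355 TAC barcodes below the S100 limit, 1 reached 10 granule UMIs per 10000, and of 4026 in sham none did, which allows a share of up to 0.0916% (exact interval). Median depths were 15100 UMIs in the macrophage-marker, 6495.5 in the granule-low and 22477 in the member barcodes.

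A sizeable fraction of members also carried macrophage RNA. C1qa, C1qb and C1qc, the complement chains that mark macrophages, summed to at least 10 UMIs per 10000 in 64 of 162 TAC members (39.5%) and 6 of 9 sham members. In the granule-low S100-high barcodes the same held for 587 of 1084 in TAC (54.2%) and 121 of 134 in sham. C1q-rich TAC members had a median of 31858.5 UMIs and 4176.5 genes, and the other 98 members 19572.5 UMIs and 2292.5 genes. Over all 20 macrophage markers the summed level ran from 0.829 to 545 UMIs per 10000 in TAC members, and from 0.829 to 27.0 in the C1q-low members. No doublets were removed, and whether these barcodes hold more than 1 cell was not tested. Values below are therefore given for all members and, where it matters, for the 98 C1q-low members against the 497 C1q-low granule-low barcodes.

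Markers outside the rule describe the neutrophil label but are not an independent check of it. The identity list overlaps the secondary granule list, and genes of that list can follow the rule genes. Among the 162 TAC members Spearman's rho was 0.823 for Ngp and Lcn2, a secondary granule gene. All 15 neutrophil identity genes that the rule did not use were detected in TAC members, with a summed median of 450 UMIs per 10000, against 136 in the granule-low barcodes. Every member held some of them, the lowest at 75.9 per 10000, and the ranges of the 2 sets overlapped. In C1q-low barcodes the summed medians were 552 and 212. The 15 genes did not all go 1 way. In the comparison given below 10 were at least 1.5-fold higher in members and 2 lower, beside 8.15% and 26.5% of all genes. In C1q-low barcodes 8 were higher and 4 lower, beside 14.7% and 27.4%. Of 14 eosinophil, basophil and mast cell markers 10 were at 0 over all TAC members, among them Prg2, Epx, Mcpt8 and Cpa3. T cell, natural killer, B, dendritic, endothelial and cardiomyocyte markers each had a summed median of 0, fibroblast markers were at 1.83 and erythroid and platelet markers at 1.22. Single members reached more. The highest sums per 10000 were 31.2 for T cell, 56.5 for natural killer, 32.1 for B and 8.58 for dendritic markers. They were 4.71 for endothelial, 24.8 for cardiomyocyte, 55.0 for fibroblast and 53.2 for erythroid and platelet markers. Monocyte markers were at 24.5 in members and 28.3 in granule-low barcodes. These sums are per 10000 of all UMIs, of which the rule genes took 29.1% in members and 6.81% in granule-low barcodes. A difference as small as that in monocyte markers therefore depends on the scale. Of 10 dendritic cell markers, Cd209a and Siglech were at 0 over all TAC members and the other 8 were detected.

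To describe what else distinguished the members, UMIs were summed over the 162 granule-rich and over the 1084 granule-low S100-high barcodes of the TAC library. Levels are CPM, UMIs per 1000000 UMIs other than those of the 5 rule genes, because those genes took 29.1% of all UMIs in members and 6.81% in granule-low barcodes. Of 9401 genes with at least 50 UMIs, 766 were at least 1.5-fold higher in members (8.15%) and 2489 at least 1.5-fold lower (26.5%). In the C1q-low barcodes these were 741 (14.7%) and 1380 (27.4%) of 5030 genes. The median gene was at -0.25 on the log2 scale, and when all UMIs were used for scaling it moved to -0.65, with 387 genes higher and 5172 lower, so that the higher genes fell from 23.5% to 6.96% of those past the limit. Since both sets were cut by granule RNA within 1 library, the ratios carry no test.

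Secondary granule genes outside the rule had the highest median of the lists. Of 15 measured, 12 were at least 1.5-fold higher, beside 8.15% of all genes, and none lower, at a median log2 ratio of 2.61, and in C1q-low barcodes 13 were higher, with a median of 2.0. Lcn2, lipocalin 2, which binds bacterial siderophores, was at 21996 CPM in members and 1124 in granule-low barcodes, 19.6-fold (95% Poisson interval 19.2 to 19.9). Per barcode it ran from 14.9 to 414 UMIs per 10000 in members, median 150, and from 0 to 145 in granule-low barcodes, median 4.37. The medians lay far apart and the ranges overlapped.

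Some other secondary granule genes, such as Orm1 and Itgb2l, were at very low levels in granule-low barcodes, and others were not. Orm1, orosomucoid 1, was at 149 CPM in members and 0.696 in granule-low barcodes, 214-fold (112 to 471), with 437 and 9 UMIs. Itgb2l, a beta-2-like integrin chain, was at 127 and 0.618 CPM, 205-fold (103 to 479). Cd177, a surface glycoprotein of neutrophils and their granule membranes, was at 895 and 16.5 CPM, 54.4-fold (47.3 to 62.8). Ceacam10 was 16.6-fold (14.1 to 19.6), Fcnb, ficolin B, 11.4-fold (8.19 to 16.1), Chil3, the chitinase-like protein Ym1, 7.49-fold (7.32 to 7.66), Pglyrp1, a peptidoglycan recognition protein, 6.11-fold (5.93 to 6.30), and Mmp8, neutrophil collagenase, 5.33-fold (5.11 to 5.56). Lyz2, lysozyme, which macrophages share, was level over all barcodes at 0.95-fold and 1.37-fold in C1q-low barcodes. Olfm4, a granule protein of a subset of neutrophils, had 65 UMIs in only 4 members.

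**Figure D2:**
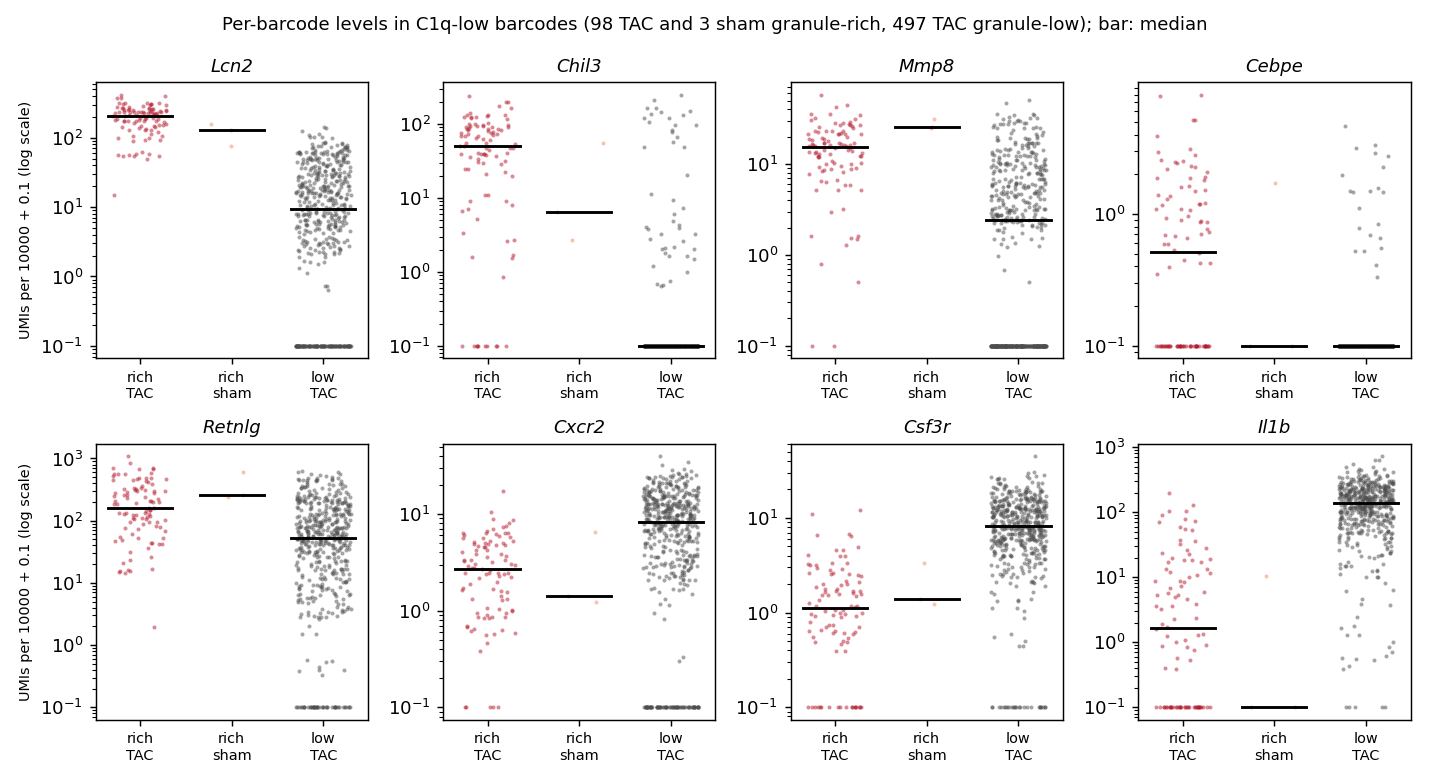
Level of 8 genes in each C1q-low barcode (vertical, UMIs per 10000 plus 0.1, log scale) for 98 granule-rich TAC, 3 granule-rich sham and 497 granule-low TAC barcodes; each point is 1 barcode and each bar the median. Lcn2, Chil3 and Mmp8 sit higher in granule-rich TAC barcodes, with Lcn2 at a median of 208 against 9.35, and Csf3r and Il1b sit lower, with Il1b at a median of 1.56 against 139.

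Gelatinase granule and secretory vesicle genes were also higher, by less. Of 13 measured, 11 passed 1.5-fold upward, beside 8.15% of all genes, and none downward, with a median log2 ratio of 0.82. In C1q-low barcodes 6 of 13 passed, beside 14.7% of all genes, with a median of 0.54. Mmp9, gelatinase B, was at 762 CPM in members and 191 in granule-low barcodes, 3.98-fold (3.76 to 4.22). Padi4, the enzyme that citrullinates histones in extracellular trap formation, was 6.65-fold (5.61 to 7.90), and Mmp25, a membrane-bound metalloproteinase, 3.73-fold (2.61 to 5.32). Fpr1 and Fpr2, receptors for formyl peptides, were 1.80-fold and 2.23-fold over all barcodes and 1.13-fold and 1.45-fold in C1q-low barcodes. Alpl and Mme, markers of secretory vesicles and late neutrophils, had 0 UMIs in members and 3 and 1 in granule-low barcodes.

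Of 6 subunits of the phagocyte NADPH oxidase, which makes superoxide, 5 were higher, beside 8.15% of all genes, and none lower. Their median log2 ratio was 0.88. Ncf1 was 2.23-fold (2.08 to 2.39), Ncf4 2.21-fold (2.07 to 2.35), Rac2 2-fold and Cyba 1.59-fold. Cybb, the catalytic gp91 chain, was 1.44-fold over all barcodes and 2.85-fold (2.57 to 3.15) in C1q-low barcodes. Cyba and Cybb also stand in the secondary granule list, since their protein is stored in that granule's membrane.

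RNA of the defining primary granule proteases was scarce in members. Of 10 measured genes, 2 were higher and 5 lower, beside 8.15% and 26.5% of all genes. The median log2 ratio was -0.55, or 0.15 after thinning to 2000 UMIs. Ctsg, cathepsin G, had 0 UMIs over all 162 members and 105 in granule-low barcodes. Counted by UMI this put members at least 7.95-fold lower, taking 3 UMIs over the group as the floor. That bound does not allow for UMIs that lie together in few cells. Mpo, myeloperoxidase, had 2 UMIs in members and 68 in granule-low barcodes, and Elane, neutrophil elastase, 7 and 509. In the granule-low barcodes these UMIs came from few cells, 14 for Mpo and 25 for Elane. Prtn3, proteinase 3, was at 39.1 and 89.4 CPM, a ratio of 0.438 (0.358 to 0.531). The exceptions were Serpinb1a, an inhibitor of neutrophil serine proteases, at 807 and 25.7 CPM, 31.5-fold (28.0 to 35.4), and Prss57, with 11 and 18 UMIs.

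Of 15 measured granulocyte transcription factors 1, Cebpe, passed 1.5-fold upward, a share near the 8.15% of all genes. Cebpe was at 102 CPM in members and 4.56 in granule-low barcodes, 22.3-fold (16.8 to 30.03), from 299 and 59 UMIs. In C1q-low barcodes it was 14.9-fold (10.1 to 22.7). Its UMIs lay in 90 members, with a highest level of 7.89 per 10000. Spi1, which encodes PU.1, was 1.24-fold, and Cebpb and Cebpd, C/EBP factors of later and activated myeloid cells, were at 0.928 and 0.724 of the granule-low level. Runx1, Cebpa, Irf8 and Junb were at least 1.5-fold lower, at 0.596, 0.565, 0.482 and 0.663, and these 4 of 15 are a share near the 26.5% of all genes. Among C1q-low barcodes 8 of 14 were lower, beside 27.4% of all genes, at a median log2 ratio of -0.77. Gfi1, a transcriptional repressor, had 1 UMI in members.

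Summed over barcodes, progenitor and division genes were mostly lower in members. Of 11 measured myeloid progenitor genes 2 were higher and 8 lower, beside 8.15% and 26.5% of all genes. Their median log2 ratio was -0.78, with an interval over the genes of -3.95 to 1.45. This list shares Mpo, Elane, Prtn3, Ctsg, Ms4a3 and Prss57 with the primary granule list and Myb and Gata2 with the transcription factors. Detection by cell went the other way. The full list of 15 genes had no UMI in 68 of 162 members and in 682 of 1084 granule-low barcodes, which were shallower. Kit, the stem cell factor receptor, had 18 UMIs in members. Of 32 cell cycle genes 1 was higher and 24 lower, beside 8.15% and 26.5% of all genes. The median log2 ratio was -0.78, and -0.18 after thinning to 2000 UMIs. Hmgn2, a chromatin protein, was the 1 higher, at 2.58-fold (2.42 to 2.76). Mki67 was at 29.95 CPM in members and 60.3 in granule-low barcodes, and Top2a at 29.3 and 69.1. Few of these UMIs lay in the 98 C1q-low members. In the 4 groups of rising granule level described below, those members held 8, 1, 1 and 0 UMIs of Mki67 and 2, 0, 0 and 1 of Top2a.

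By cell, division signs were no more frequent than in granule-low barcodes. At 2000 UMIs per barcode, at least 1 UMI of 11 division genes was found in 8.02% of members (13 of 162, 4.34 to 13.3%) and in 10.9% of granule-low barcodes (117 of 1078, 9.06 to 12.9%). Among C1q-low barcodes it was found in 4 of 98 members (4.08%, 1.12 to 10.1%) and 28 of 492 granule-low barcodes (5.69%, 3.81 to 8.12%). Among C1q-rich barcodes the shares were 9 of 64 and 89 of 586. The intervals overlapped in each case.

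The mature neutrophil list did not move as 1 group. Over all barcodes 6 of 24 genes were higher, beside 8.15% of all genes, and 6 lower, a share near the 26.5% of all genes. The median log2 ratio was 0.04 (-0.36 when scaled to all UMIs). Among C1q-low barcodes 3 were higher and 10 lower, beside 14.7% and 27.4% of all genes, with a median of -0.54. Retnlg, a resistin-like protein of neutrophils, was at 17350 CPM in members and 4422 in granule-low barcodes, 3.92-fold (3.88 to 3.97). Trem3 was 2.43-fold, while Csf3r, the receptor for granulocyte colony-stimulating factor, was at 209 and 436 CPM, a ratio of 0.480 (0.441 to 0.522). Fgl2 was at 0.404, Clec4d, a C-type lectin, at 0.569, Btg1 at 0.590 and Ccl6 at 0.629.

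Receptors that guide neutrophils out of and back to the marrow were mostly not higher. Cxcr2, the receptor for Cxcl1 and Cxcl2, was at 343 CPM in members and 398 in granule-low barcodes, a ratio of 0.862 (0.805 to 0.922), and at 0.525 (0.477 to 0.577) in C1q-low barcodes. Cxcr4, the marrow-retention receptor, was at 0.451 (0.391 to 0.518) and Cxcr1 at 0.234 (0.129 to 0.393). Ltb4r1, the high-affinity leukotriene B4 receptor, stood apart at 411 and 71.2 CPM, 5.78-fold (5.30 to 6.30). In the list of 18 trafficking genes, 5 were higher and 3 lower, beside 8.15% and 26.5% of all genes. Among C1q-low barcodes 3 were higher and 11 lower, beside 14.7% and 27.4% of all genes. Itgam and Itgb2, the chains of Mac-1, were 1.76-fold and 1.59-fold.

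Cytokine and signalling genes were lower in members. None of 26 inflammatory and NF-kB genes was higher and 14 were at least 1.5-fold lower, beside 26.5% of all genes, at a median log2 ratio of -0.60, and among C1q-low barcodes 20 of 25 were lower, with a median of -1.59. Il1b, which encodes interleukin-1 beta, was at 1730 CPM in members and 6179 in granule-low barcodes, a ratio of 0.280 (0.272 to 0.288), and the C1q-low ratio was 0.128 (0.122 to 0.133). Per barcode it had a median of 3.59 UMIs per 10000 in members, from 0 to 193, and of 77.0 in granule-low barcodes, from 0 to 722. It was at 0 in 48 of 162 members and 7 of 1084 granule-low barcodes, which were shallower. Ccrl2, in the trafficking list, was at 0.390, Ptgs2, cyclooxygenase 2, at 0.352, Tnfaip2 at 0.409 and Acod1, which makes itaconate, at 0.436. Tnf was at 0.846 over all barcodes and 1.02 in C1q-low barcodes.

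Interferon-stimulated and immediate-early genes followed the same direction. None of 35 interferon-stimulated genes was higher and 25 were lower, beside 26.5% of all genes, at a median log2 ratio of -0.81. Among C1q-low barcodes 31 of 34 were lower, beside 27.4% of all genes, with a median of -1.41. Isg15, a ubiquitin-like modifier, was at 747 CPM in members and 1449 in granule-low barcodes, a ratio of 0.515 (0.493 to 0.539), and Ifit3 was at 0.391 and Rsad2, viperin, at 0.411. Ifitm3 was an exception, at 1.19-fold. The guanylate-binding proteins Gbp2 and Gbp3 were at 0.366 and 0.372, though reads can be split among close Gbp copies. Of 29 immediate-early and heat shock genes, none was higher and 15 were lower, beside 26.5% of all genes. Dusp1, a phosphatase of MAP kinases, was at 0.533 and Hspa8, a constitutive chaperone, at 0.690.

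**Figure D3:**
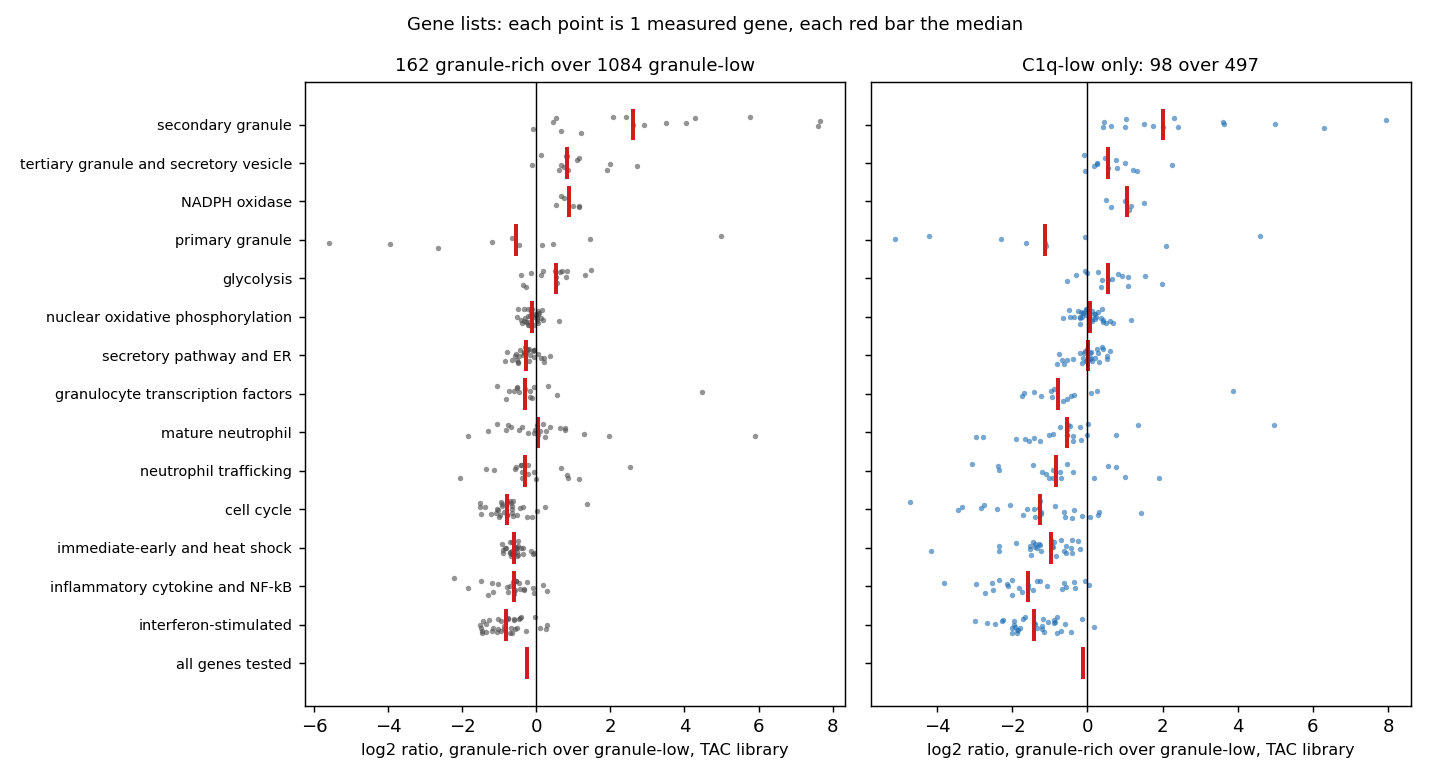
Log2 ratio of granule-rich over granule-low TAC barcodes (horizontal) for each measured gene of 14 lists and the median of all genes tested, with all barcodes on the left and C1q-low barcodes on the right; points are genes and red bars medians. The secondary granule median lies at 2.61 and 2.0, the interferon median at -0.81 and -1.41, and the median of all genes at -0.25 and -0.12.

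Of 15 glycolysis genes 6 were higher, beside 8.15% of all genes, and none lower, at a median log2 ratio of 0.52. Gpi1 was 2.80-fold (2.66 to 2.95), Ldha, lactate dehydrogenase A, 2.51-fold (2.37 to 2.65), Pgk1 1.77-fold and Gapdh 1.74-fold. Of 32 nuclear genes of oxidative phosphorylation 1 was higher and none lower, under the 8.15% and 26.5% of all genes. Of 29 genes of the secretory pathway and endoplasmic reticulum none was higher and 3 were lower, also under those shares. The secretory median was -0.27, but 0.0069 without C1q-rich barcodes, 0.11 after thinning to 2000 UMIs and 0.17 with each cell weighted equally. Ribosomal protein genes had 2 higher and 2 lower of 83, again under the shares of all genes. Of 13 genes of the mitochondrial genome 3 were lower, a share near the 26.5% of all genes, at a median log2 ratio of -0.46. Among C1q-low barcodes 11 were lower, beside 27.4% of all genes, at a median of -0.82. The median mitochondrial share was 2.32% in members and 4.59% in granule-low barcodes, a measure the filter also limits. Median depth moved with these values, at 22477 and 6495.5 UMIs, and its part in the ratios was not tested beyond the thinned values.

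The genes with the highest ratios outside the lists included Ggt1, gamma-glutamyltransferase 1, at 70.9-fold (46.1 to 115), Prok2, prokineticin 2, at 19.5-fold (16.5 to 23.2), Ifitm6 at 19.1-fold (18.5 to 19.8), Krt83 at 19.1-fold (15.1 to 24.2), Adpgk, the ADP-dependent glucokinase, at 13.5-fold (11.3 to 16.2) and Tmem40 at 12.1-fold (9.10 to 16.2). Ifitm6 was at 6044 CPM in members and 316 in granule-low barcodes. Stfa3 and Stfa2, stefin A cysteine protease inhibitors, were 81.3-fold and 38.9-fold, but their UMIs lay in 21 and 34 members and 1 member held 22% and 15.5% of them. Those genes have near-identical copies, so the split of reads among them is uncertain. BC100530, of the same family, was 59.5-fold from 26 members, against 1.72-fold for Stfa2l1.

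The genes with the lowest ratios were led by Saa3, an acute-phase serum amyloid, at 73.9 CPM in members and 785 in granule-low barcodes, a ratio of 0.0941 (0.0819 to 0.108). One member held 37.8% of its UMIs in that set. Ly6c1 was at 0.158, Gdf15 at 0.186, Fabp4 at 0.196 and Cxcl9 at 0.209. Sirpb1b and Sirpb1c, signal-regulatory proteins, were at 0.240 and 0.290, Prr5l at 0.249, H2-Q10 at 0.258, Trim30c at 0.261 and Ifit1bl1 at 0.291. Mgp was at 0.323, with 55.6% of its granule-low UMIs in 1 barcode, Pmaip1, the BH3-only protein Noxa, was at 0.325 and Steap4 at 0.340. Fabp4 and Ly6c1 are also endothelial markers, and Fabp4 had 25.1% of its granule-low UMIs in 1 barcode.

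Members differed among themselves along the granule level. Ranked by Ngp, Camp and Ltf and split into 4 equal-sized groups, the 98 C1q-low TAC members had medians of 39.3, 186, 414 and 738 granule UMIs per 10000. Genes outside the rule were then compared between the highest and the lowest of these 4 groups, with 24 and 25 barcodes. Of 1394 genes measured, 287 were at least 1.5-fold higher (20.6%) and 293 lower (21%) in the highest group. Median depth rose from 9528 to 26011 UMIs and the median mitochondrial share fell from 2.96% to 1.51%, and their part in the differences was not tested.

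Granule and Cebpe levels climbed together across the 4 groups. Cebpe was at 36.8, 70.8, 137 and 386 CPM from the lowest to the highest group. Lcn2 went from 16517 to 48962 CPM, Chil3 from 5073 to 20809, Anxa1, the anti-inflammatory annexin, from 2430 to 9181 and Cybb from 298 to 1387. Fcnb was at 36.8, 10.1, 70.1 and 175 CPM. Mmp8 did not follow, with its peak of 3007 CPM in the second group and 1496 in the highest. Of 6 measured primary granule genes 4 were higher in the highest group and 1 lower, beside 20.6% and 21% of all genes. Their median log2 ratio was 1.61, with an interval over the genes of -1.33 to 2.36. Of 14 measured secondary granule genes 12 were higher in the highest group and 2 lower, beside 20.6% and 21% of all genes. Their median log2 ratio was 1.30.

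Mature-stage genes ran the other way. Of 24 mature neutrophil genes 17 were lower in the highest group and 2 higher, beside 21% and 20.6% of all genes. Their median log2 ratio was -1.20. Retnlg fell from 41092 to 12975 CPM, Ccl6 from 1425 to 40.9, Clec4d from 878 to 155, Cxcr2 from 609 to 260 and Csf3r from 396 to 143. Il1b was at 4909, 1318, 976 and 532 CPM and Cxcl2 at 8761, 6891, 3608 and 2693. None of 29 interferon-stimulated genes was higher and 23 were lower, beside 21% of all genes. Isg15 was at 1724 CPM in the lowest and 447 in the highest group. Retnlg was thus higher in members than in granule-low barcodes, and lower in the members with most granule RNA.

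**Figure D4:**
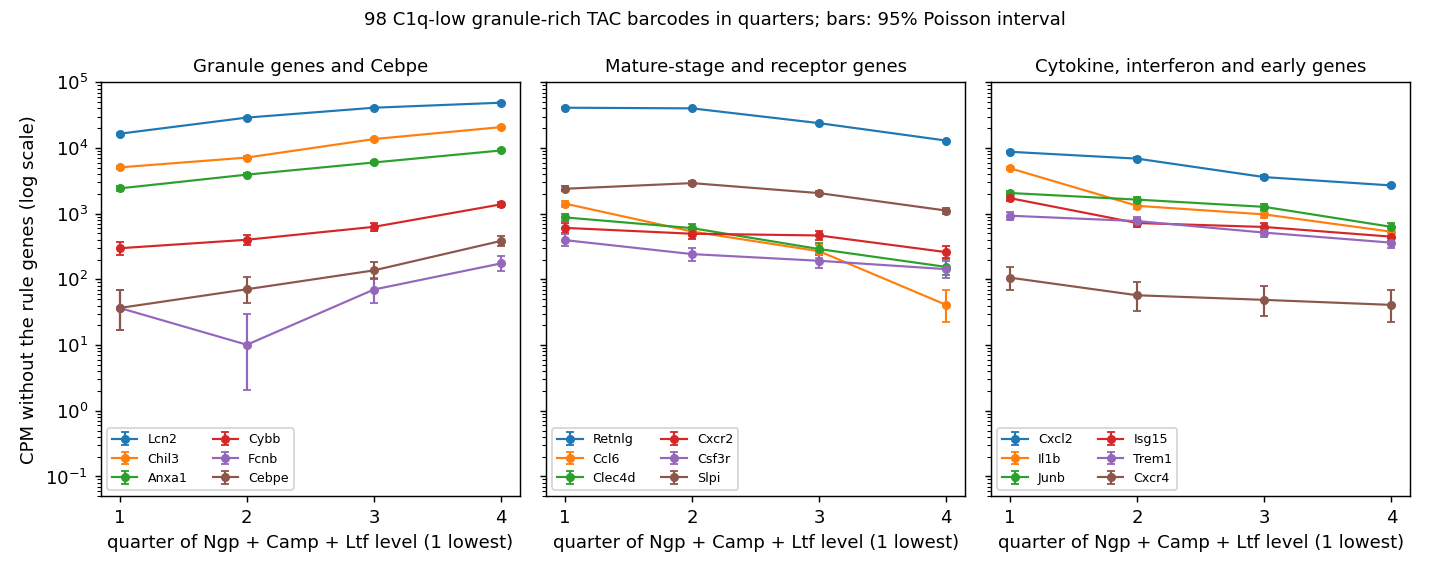
Summed level (vertical, CPM without the rule genes, log scale) of 18 genes in the 98 C1q-low TAC members, split into 4 groups by granule level (horizontal, 1 lowest); bars are exact 95% Poisson intervals on the counts. Cebpe climbs from 36.8 to 386 CPM while Il1b goes from 4909 to 532 and Ccl6 from 1425 to 40.9.

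Many secretory pathway and nuclear respiratory chain genes were also higher at the granule-rich end of the C1q-low members. Of 28 genes of the secretory pathway and endoplasmic reticulum 24 were higher, beside 20.6% of all genes in this ranking, and none lower, at a median log2 ratio of 0.89. Of 29 nuclear oxidative phosphorylation genes 16 were higher, beside 20.6% of all genes, and none lower, with a median of 0.62. Genes of the mitochondrial genome went the other way. Of 12 measured none was higher and 6 were lower, beside 21% of all genes, with a median of -0.59. Of 81 ribosomal protein genes 16 were higher, a share near that of all genes, and none lower, with a median of 0.39. Over all 162 members, where the lowest group held 21 C1q-rich barcodes of 41 and the highest 9 of 40, the secretory list had 8 of 29 higher and none lower, beside 16.1% of 2800 genes. There 6 of 32 nuclear oxidative phosphorylation genes were higher, a share near that of all genes, and 2 lower, with a median of 0.14. The median of the ribosomal list was -0.13 in that ranking. The secondary granule list had 12 of 15 higher, beside 16.1% of all genes, and the interferon list 26 of 34 lower, beside 25.3%. Each of these lists had the same direction in both rankings.

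The 9 sham members are too few for a comparison of levels with TAC, for which the minimum used here was 20 members per library. Their granule level ran from 10.54 to 1036 UMIs per 10000, with a median of 226, inside the range of the TAC members. All 3 granule genes were detected in 8 of them and Ngp alone in 1. The split of granule UMIs was 44.8% Ngp, 41.5% Camp and 13.7% Ltf. They had 6241 to 33187 UMIs and mitochondrial shares of 4.13 to 9.80%, and their C1q level was 0 in 3 of them and 30.7 to 123 per 10000 in the other 6.

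Lcn2, Mmp8 and Retnlg were detected in all 9 sham members. Lcn2 ran from 12.8 to 200 UMIs per 10000, Mmp8 from 1.51 to 38.5 and Retnlg from 3.31 to 611. The sham member with the highest granule level, 1036 per 10000, had 160 per 10000 of Lcn2 and no C1q UMI. Cebpe had 6 UMIs in 2 sham members, Cd177 had 42 UMIs in 8 and Chil3 had 138 UMIs in 7. Mpo, Elane, Ctsg, Prtn3 and Fcnb had no UMI in them, which at their summed depth allows up to 28.7 CPM each.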

How the data were processed

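UMI counts per gene and barcode were deposited by the authors as 2 matrices with 31053 features, made with Cell Ranger 3.0 on mm10, per the submitters' processing notes. The method of cell calling is not stated in what was used here, and the labels' protocols name several droplet runs, which the barcodes do not separate. No doublet caller was run and no doublets were removed. Barcodes were filtered (300 genes, 10% mitochondrial UMIs) and chosen by the rule given in the report. The members and gene lists were chosen with earlier results of these data known. UMIs were summed per set, with 0.5 added for log2 ratios, and ratios carry exact 95% intervals on the counts. Lists use genes with at least 20 UMIs over both sets. Named are the rule genes, the 15 highest and 15 lowest ratios among genes with at least 50 UMIs and 50 CPM, and up to 4 genes from each end of a list, and others named were chosen after their values were seen. The levels of TAC members over sham members were not compared, because sham held 9. The calculation was tested on simulated data. Other settings were tried one at a time, of which scaling to all UMIs was chosen after seeing the data. Gene positions are from GENCODE vM21. Calculations ran in Python 3.11.15 with matplotlib 3.10.9 for plots, pandas 2.3.3, scipy 1.17.1 and numpy 2.4.6. Some members of the lists are counted but not reported by name here.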

Additional observations from a re-analysis of the deposited data

Results flagged for a closer look

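Barcodes outside the kept set also held the member pattern. Of 2246 TAC barcodes over the mitochondrial limit, 27 met both expression limits (1.2%, exact interval 0.794 to 1.74%), against 2 of 7590 in sham (0.0264%, 0.00319 to 0.0952%). In TAC barcodes under 300 genes, with a median of 648 UMIs, Ngp, Camp and Ltf were at 0.274 UMIs per 10000 (0.195 to 0.375), and in the sham ones at 0.0192 (0.00624 to 0.0448). Both TAC values stood above the sham ones. The barcodes lay outside the main comparisons, and those with up to 25% mitochondrial UMIs entered the alternative with that limit.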

How the results depend on the processing

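Over the alternatives run, 165 values stayed within the limits used (1.5-fold for a count, the interval over a list's genes for a median, the counting interval for a share), 53 moved beyond them and 3, all of the secretory pathway list, changed sign where the main interval had excluded 0. No paired analysis was possible because each group is 1 library, and no alternative was run for TAC over sham members, since sham held too few. The medians of 11 lists kept their sign in every alternative; of 11 alternatives, the sign was kept in 5 for the mature neutrophil, 8 for the secretory pathway, 8 for the oxidative phosphorylation and 10 for the primary granule list. The order of TAC and sham in the share of S100-high barcodes turned in 2 alternatives, given below. The secretory pathway median changed from -0.27 to 0.0069 without C1q-rich barcodes, 0.11 after thinning to 2000 UMIs and 0.17 with each cell weighted equally, and the cause was not tested.

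Without C1q-rich barcodes the members were 6.02% of kept barcodes in TAC and 0.559% in sham, and 16.5% and 18.8% of S100-high barcodes, the latter from 3 of 16 in sham. That left 1380 genes lower, with medians of -1.26 for cell cycle, -0.77 for transcription factors, -0.97 for immediate-early and heat shock, -1.59 for inflammatory, -1.41 for interferon, -0.54 for mature neutrophil, -0.83 for trafficking, 0.074 for oxidative phosphorylation and 0.54 for gelatinase granule genes. A mitochondrial limit of 5% kept 121 sham barcodes with 1 member. The shares of kept barcodes were then 4.51% in TAC and 0.826% in sham, and of S100-high barcodes 19.9% and 25%, with medians of -0.99 for cell cycle and -0.23 for oxidative phosphorylation. A granule limit of 50 gave 2.43% of kept and 10.9% of S100-high TAC barcodes, and -1.02 for cell cycle.

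Thinning to 2000 UMIs gave 877 genes lower, with medians of -0.18 for cell cycle, -0.76 for immediate-early and heat shock, -1.06 for interferon, -0.56 for trafficking, 0.20 for oxidative phosphorylation and 0.54 for gelatinase granule genes. With each cell weighted equally 1157 genes were higher, with medians of -0.63 for cell cycle, -0.86 for inflammatory, -0.54 for mature neutrophil, -0.70 for trafficking, 0.25 for oxidative phosphorylation and 0.56 for gelatinase granule genes. Scaling to all UMIs lowered each log2 ratio by the same amount and gave 387 genes higher and 5172 lower. The medians were then 0.49 for NADPH oxidase, -1.17 for cell cycle, -0.70 for transcription factors, -0.99 for immediate-early and heat shock, -0.99 for inflammatory, -1.21 for interferon, -0.69 for trafficking, -0.51 for oxidative phosphorylation, -0.67 for secretory pathway and 0.42 for gelatinase granule genes. A minimum of 200 UMIs per gene, which tests fewer genes, gave 460 higher and 1308 lower, and a fold of 2 gave 371 and 831.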
